A study of Mus musculus with 12 samples.

Results

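The comparison described here sets the average H4K12ac promoter profile of neuronal nuclei against that of non-neuronal nuclei. Its members are the 6 H4K12ac libraries, 3 per population, with the 6 inputs as background, which makes up all 12 libraries used here. All mice were wild-type C57B/6JRj. One pair came from mice of 3 months given vehicle (18 g/L cyclodextrin in water), one from mice of 20 months given the same vehicle, and one from mice of 20 months given SAHA at 0.67 g/L in that vehicle. SAHA is an inhibitor of histone deacetylases, and treatment was oral for 4 weeks. Hippocampal subfield CA1 is named in the file headers, which call the non-neuronal population glia. The groups are called young, aged vehicle and aged SAHA below, and values are listed in that order. Neuronal and non-neuronal libraries were paired by condition, giving 3 pairs. Each group was 1 library, and the sources used here do not give whether it held nuclei of 1 mouse or of several. The profiles hold no gene, so neither population could be checked against marker genes.

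Acetyl groups on histone tails are written by acetyltransferases and removed by deacetylases, and acetylated H4 is read by bromodomain proteins that help transcription start. Lysine 12 of H4 is one of the acetylated residues of the H4 tail and marks promoters of active genes. At an active promoter the transcription start site (TSS) lies in a stretch poor in nucleosomes, with well-placed nucleosomes on either side, so a histone mark typically has a main summit on the gene side and a lower shoulder or summit on the upstream side. Neurons and glia use different sets of genes, and an average over many TSS mixes promoters of all shapes.

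Each file gave 1 mean signal at each of 4001 positions from -2000 to 2001 bp relative to the TSS, printed here as the deposited value multiplied by 1000. The signal moved in whole steps, and the inverse of 1 step, which grows with depth if the authors scaled by read number, was 36400000 to 65700000 in the H4K12ac libraries and 42200000 to 78000000 in the inputs. Both extremes of H4K12ac were neuronal, with the young library lowest and the aged vehicle one highest. Counting errors, given below, do not cover variation between mice or preparations. The aged vehicle libraries stand apart. Their neuronal H4K12ac profile had the lowest summit and was, in shape, nearer to the non-neuronal profiles than the other neuronal profiles were, and their inputs were ordered the other way round from those of the other conditions. Results are given pair by pair for this reason, and with the aged vehicle pair left out where that matters.

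Without correction for input, H4K12ac was lower in neuronal than in non-neuronal nuclei along nearly the whole promoter. The authors' scaling between libraries is not stated in the sources used here, and this gap in level depends on it. The flank is defined as the outermost 10% of positions at each end. Flank signal was 5.14, 5.10 and 5.05 in the young, aged vehicle and aged SAHA neuronal libraries. The non-neuronal flank was 5.89, 5.70 and 5.85. The populations did not overlap there, and the neuronal flank varied little across age and treatment. The log2 ratio of neuronal to non-neuronal flank was -0.20, -0.16 and -0.21, on average -0.19 ± 0.028 (SD, n = 3 pairs; exact sign-flip permutation test, two-sided, p = 0.25). That p is the lowest 3 pairs can give, so no comparison here can pass a threshold of 0.05. Adjusted by Benjamini-Hochberg over the 12 measures tested, it becomes 0.273 in the 11 measures for which all pairs had 1 sign.

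Unimmunoprecipitated chromatin did not show a gap of 1 direction in all 3 pairs. Neuronal input flanks lay between 4.03 and 4.09 and non-neuronal ones between 4.03 and 4.15, with log2 ratios of -0.027, 0.021 and -0.039. At no position did the 3 neuronal inputs lie all below or all above the 3 non-neuronal ones, a share of 0% in each direction. Within pairs, neuronal input was lower in every bin of 100 bp in young and SAHA mice, by at least 1.31% and 1.72%. In aged vehicle mice it was higher in every bin, by at least 0.291%. From 1 to 500 bp downstream, input differed by -8.44%, 12.5% and -11.9%, against -10.0%, -16.0% and -9.11% for H4K12ac. Among the H4K12ac libraries, all 3 neuronal values lay below all 3 non-neuronal values at 3640 of 4001 positions, or 91%. The reverse order occurred at 0 positions. The positions are not independent, because 1 read spans about 300 bp of them.

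The positions where the H4K12ac populations overlapped formed 1 stretch around the TSS and the summit. Neuronal signal was below all non-neuronal signal from -2000 to -70 bp and again from 293 to 2001 bp. From 1 to 500 bp downstream, where the summit lies, neuronal signal was 13.5, 11.3 and 13.0 and non-neuronal signal 14.96, 13.4 and 14.3. There the young neuronal value was level with the aged vehicle non-neuronal value. Between 500 and 1000 bp upstream neuronal signal was 7.40, 7.11 and 7.18 and non-neuronal signal 9.03, 8.50 and 8.86. This region separated the populations clearly, with differences of -18.0%, -16.4% and -18.9% of the non-neuronal value in the 3 pairs.

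**Figure D1:**
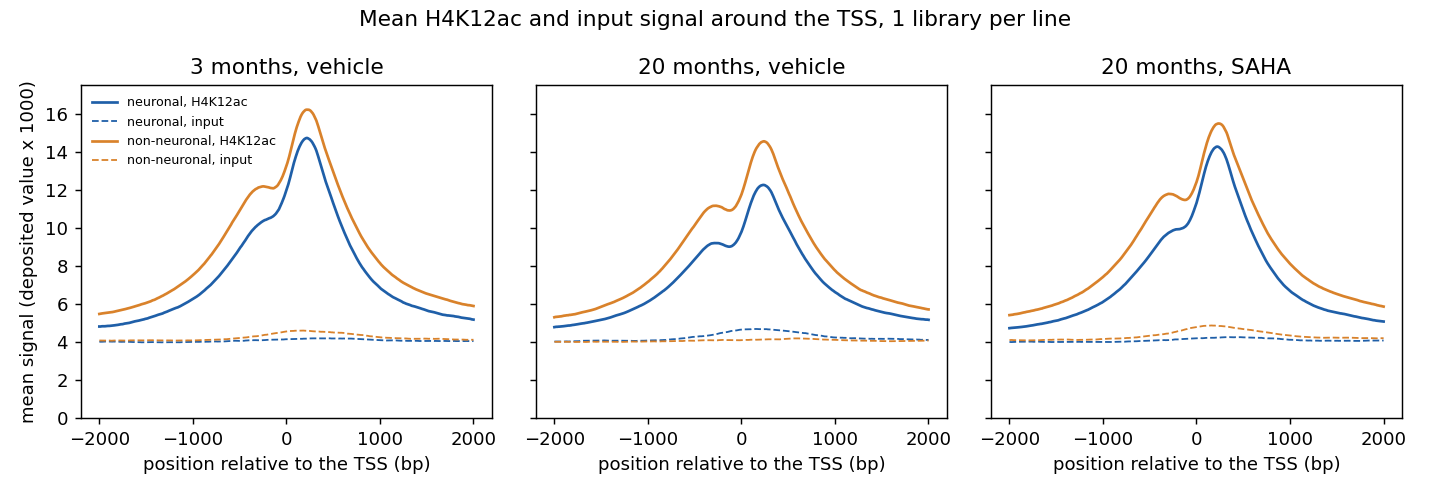
Mean signal (deposited value multiplied by 1000) against position relative to the TSS in bp, with 1 panel per condition, solid lines for H4K12ac and dashed lines for input, 1 library per line. The neuronal H4K12ac line runs below the non-neuronal one in each panel, with flanks of 5.05 to 5.14 against 5.70 to 5.89, while the inputs lie between 3.98 and 4.87.

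The gap between the populations was not even along the promoter. In bins of 100 bp, the neuronal deficit was greatest upstream, from -700 to -600 bp in young mice (-18.6%), from -500 to -400 bp in aged vehicle mice (-17.7%) and from -600 to -500 bp in SAHA mice (-19.7%). It was smallest over the rise to the summit, at 100 to 200 bp, in young mice (-9.17%) and SAHA mice (-7.51%). In aged vehicle mice it was smallest at the far downstream edge instead, at 1900 to 2000 bp (-9.91%). Thus 2 pairs showed a marked narrowing of the gap at the summit, and the aged vehicle pair did not.

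Dividing a profile by the flank of the same library removes any difference in overall scale. On that scale the neuronal signal at 100 to 200 bp was above the non-neuronal one by 4.11% in young mice and 7.23% with SAHA, whereas in aged vehicle mice the difference there was -5.80%. In the bins of greatest deficit, which by construction are the same as for the undivided signal, the difference was -6.66%, -8.11% and -6.95%. All 3 neuronal values lay below all non-neuronal ones at 58.8% of positions, mainly from -1682 to -346 bp and from 732 to 1742 bp. They lay above at 3.67% of positions, all close to the outer edges. Those positions lie within the flanks whose mean sets the scale, so their place comes partly from the scaling.

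**Figure D2:**
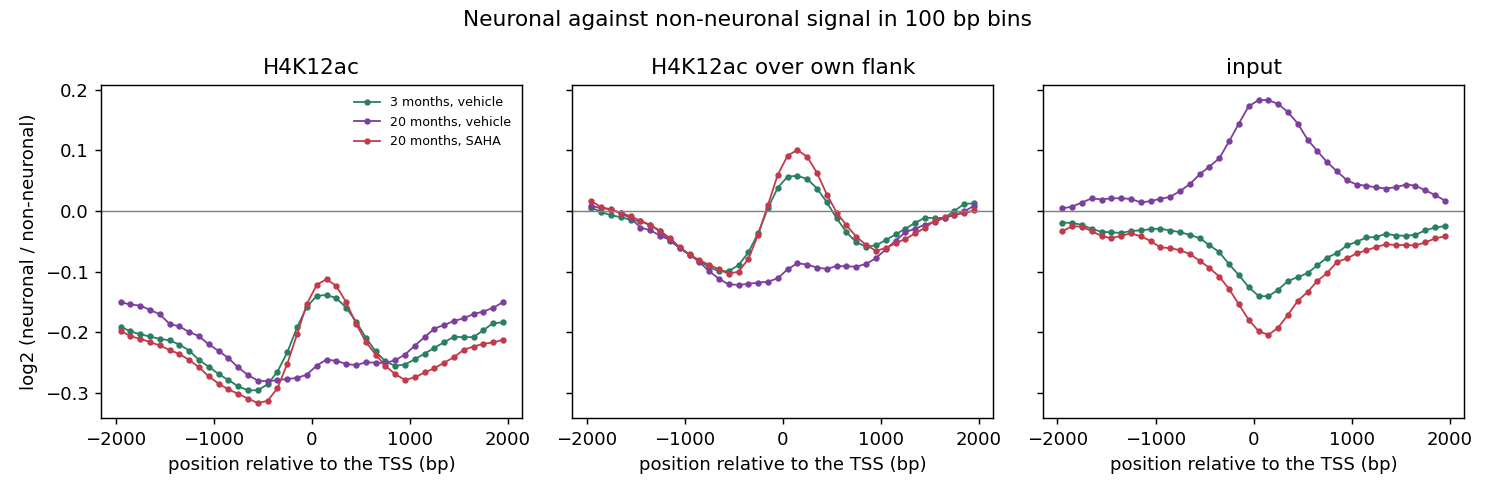
Log2 ratio of the neuronal to the non-neuronal library of the same condition in bins of 100 bp, for H4K12ac (left), H4K12ac divided by its own flank (middle) and input (right). In the left panel the young and SAHA lines rise towards 0 just downstream of the TSS and the aged vehicle line does not; in the right panel the aged vehicle line alone is above 0.

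The shape of the peak was then compared on a scale that sets the flank of each library to 0 and its maximum to 100%. A constant signal added to a library, or a change of its overall scale, leaves this relative height unchanged by construction. The neuronal peak was narrower in all 3 conditions. The width midway between flank and maximum was 956 bp, 1085 bp and 921 bp in neuronal nuclei of young, aged vehicle and aged SAHA mice. In non-neuronal nuclei it was 1131 bp, 1166 bp and 1163 bp. The widest neuronal peak, that of aged vehicle mice, was narrower than the narrowest non-neuronal one. The paired differences were -175 bp (95% counting interval -187 to -163), -81.0 bp (-91.3 to -70.6) and -241 bp (-254 to -229). Their mean was -166 ± 80.5 bp (SD, n = 3 pairs; exact sign-flip permutation p = 0.25).

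At 50% of the height, most of the missing width lay upstream. The upstream half-height point was 352, 442 and 318 bp from the TSS in neuronal nuclei and 482, 502 and 500 bp in non-neuronal nuclei. The neuronal values were spread out, whereas the non-neuronal ones lay close together. The mean paired difference was -124 ± 61.2 bp (SD, n = 3 pairs; exact permutation p = 0.25). The downstream half-height point was 605, 644 and 604 bp from the TSS in neuronal and 650, 665 and 664 bp in non-neuronal nuclei. Here too the populations did not overlap, but the paired difference was smaller, at -41.9 ± 19.4 bp (SD, n = 3 pairs; exact permutation p = 0.25).

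The neuronal profile was also narrower at other heights on the outer slopes, but the share of each side changed with height. Near the summit the upstream difference was lost. At 20% of the height, the neuronal profile reached less far, with differences of -110, -49.7 and -127 bp upstream and of -80.6, -36.3 and -116 bp downstream. The means were -95.7 bp upstream and -77.7 bp downstream, closer to each other than at 50%. At 40% the upstream differences were -119, -61.4 and -149 bp. From 60% upwards the upstream distances of the populations overlapped. The paired differences were -42.1, -45.3 and -18.9 bp at 60% and -0.698, -13.8 and 0.449 bp at 70%. Each distance is to the first fall below that height outward from the maximum. At 60% this point lay between the shoulder and the TSS, at 133, 83.4 and 72.3 bp in non-neuronal nuclei. At -300 bp the non-neuronal profiles stood above 60% again (60.3%, 61.7% and 61.6%), where neuronal heights were 52.6%, 57.3% and 50.8%. Thus the distances overlapped at 60% although the heights on the shoulder did not. On the downstream side neuronal distances were below all non-neuronal ones at each of the heights examined. The mean downstream difference was -77.7 bp at 20%, -26.9 bp at 70% and -11.1 bp at 90%. At 70% the mean upstream difference was smaller, at -4.67 bp.

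**Figure D3:**
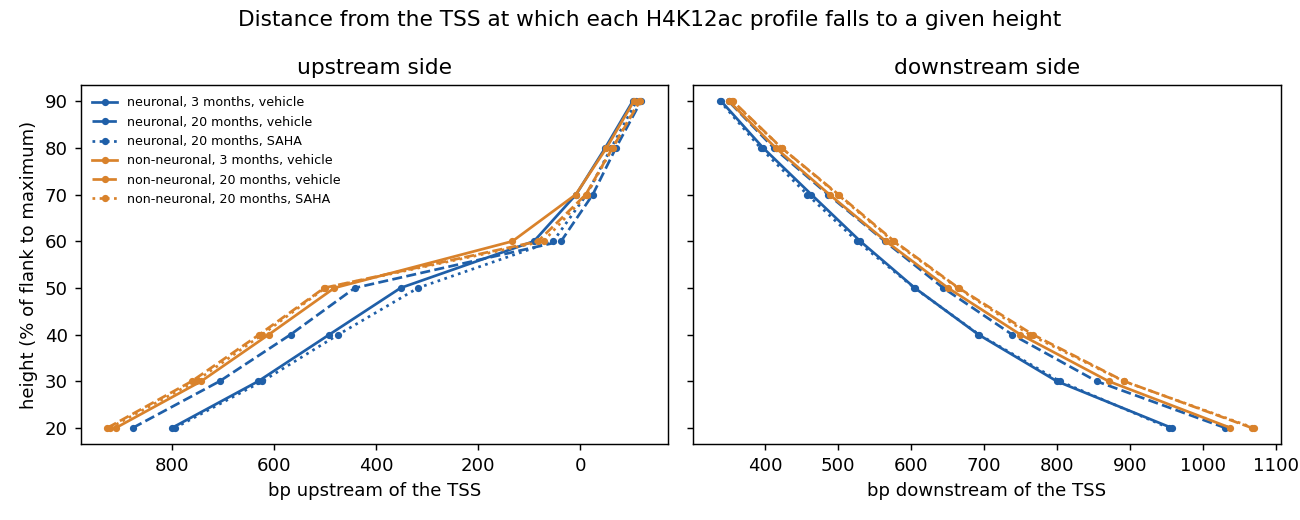
Distance from the TSS in bp (horizontal) at which each H4K12ac profile falls to a given relative height (vertical, % of flank to maximum), upstream on the left and downstream on the right; distances below 0 lie on the gene side. The non-neuronal lines (orange) lie outside the neuronal ones (blue) at 50% and below, and the upstream lines overlap from 60% upwards. Each distance is to the first fall outward from the maximum, so the upstream points at 60% lie between the shoulder and the TSS.

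The upstream shoulder carried the largest difference in relative height. Averaged between 200 and 500 bp upstream, the height was 49.1%, 54.0% and 47.4% in neuronal nuclei and 57.3%, 58.6% and 58.4% in non-neuronal nuclei. The neuronal value was the lower in each pair, with differences of -8.13, -4.56 and -11.04 percentage points (mean -7.91 ± 3.24, SD, n = 3 pairs; exact permutation p = 0.25). Single counting errors of these heights were at most 0.231 points. Further out, between 500 and 1000 bp upstream, neuronal heights were 23.6%, 28.0% and 23.2% against 30.5%, 31.7% and 31.3%. The SAHA pair differed most and the aged vehicle pair least in both windows.

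The form of the shoulder also differed. A separate upstream maximum, more than 200 bp from the TSS, lay at -252, -271 and -294 bp in non-neuronal nuclei. The dip between it and the TSS was 0.861%, 2.26% and 2.77% of that maximum. Among neuronal libraries the young one had none. The aged vehicle one had it at -270 bp (dip 2.12%) and the SAHA one at -203 bp (dip 0.0639%), at the edge of the region searched. The dips were read from the unsmoothed signal and have no counting error, so a dip as small as the latter may not mark a separate maximum. In young and SAHA neuronal nuclei the profile climbed between -300 and -100 bp, by 6.79 and 4.76 percentage points of height. In young non-neuronal nuclei it was nearly level there (0.781), and in aged vehicle and SAHA non-neuronal nuclei it changed by -2.38 and -2.96 points. The aged vehicle neuronal profile changed by -2.09 points, downwards as the non-neuronal ones of 20 months did. The steepest climb onto the shoulder lay at -477, -491 and -457 bp in neuronal nuclei and at -486, -616 and -542 bp in non-neuronal nuclei. The steepest climb of the whole profile, from the TSS to the summit, was 2.41, 2.65 and 2.76 times as steep as that onto the shoulder in neuronal nuclei, against 2.29, 2.35 and 2.35 times in non-neuronal nuclei.

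Downstream of the summit the difference had the same direction and was smaller. Between 500 and 1000 bp, in the early gene body, relative height was 36.6%, 40.8% and 36.5% in neuronal and 41.7%, 43.2% and 43.1% in non-neuronal nuclei. The pairs differed by -5.09, -2.41 and -6.53 points (mean -4.68 ± 2.09, SD, n = 3 pairs; exact permutation p = 0.25). The part of the signal above flank that lay upstream of the TSS was 38.1%, 38.9% and 37.4% in neuronal nuclei. In non-neuronal nuclei it was 40.5%, 40.6% and 40.3%. The neuronal signal was thus shifted to the gene side, with a mean difference of -2.35 ± 0.619 percentage points (SD, n = 3 pairs; exact permutation p = 0.25).

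The TSS itself and the summit did not separate the populations. Within 50 bp of the TSS, relative height was 71.6%, 66.1% and 68.4% in neuronal and 71.7%, 69.0% and 68.6% in non-neuronal nuclei. The young and SAHA pairs differed by -0.079 (95% counting interval -0.840 to 0.683) and -0.222 points (-0.872 to 0.429), within counting error. The aged vehicle pair differed by -2.85 points, and without it the mean moved from -1.05 to -0.150 points. The maximum lay at 222, 228 and 225 bp in neuronal and at 223, 240 and 233 bp in non-neuronal nuclei. The steepest fall after it lay at 374, 374 and 370 bp against 376, 384 and 375 bp. The maxima overlapped between the populations, and the positions of steepest fall were separated by 1 bp.

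**Figure D4:**
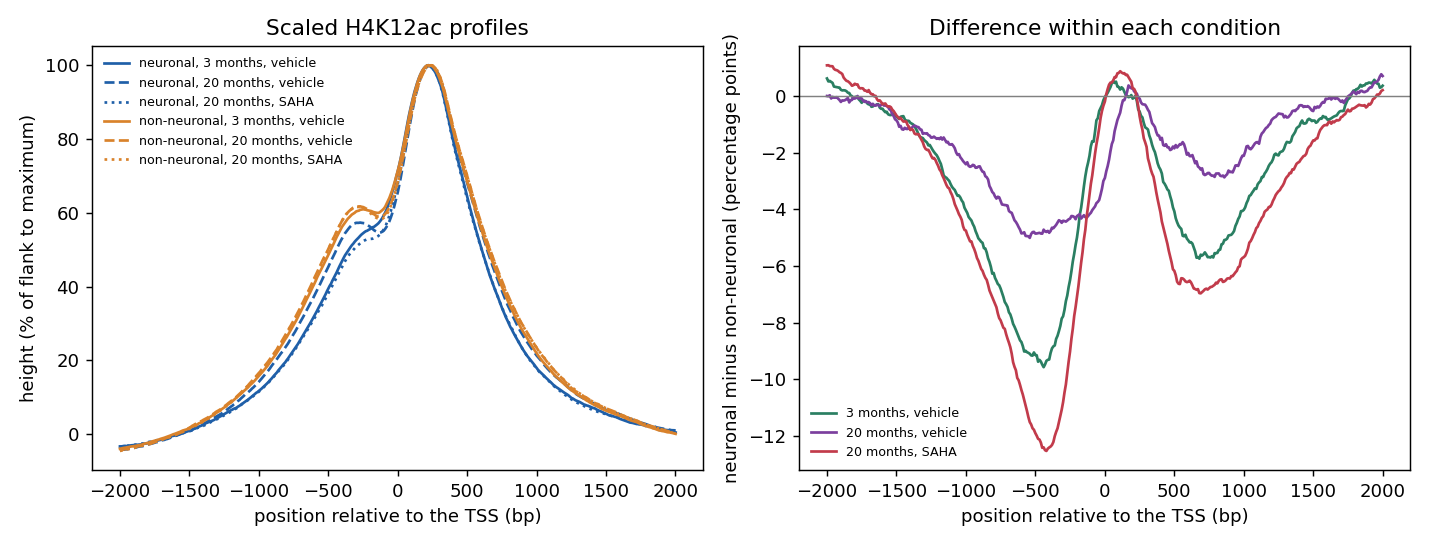
Left, H4K12ac profiles scaled from flank (0%) to maximum (100%) against position relative to the TSS in bp, with colour for population and line style for condition; right, the neuronal minus the non-neuronal height within each condition in percentage points. The lines on the right dip on both sides of the TSS, deeper upstream. They return to about 0 at the TSS in young and SAHA mice. In aged vehicle mice the difference is -2.89 points at -1 bp, -0.709 at 100 bp and 0.315 at 200 bp. Each profile is 100% at its own maximum, so differences near the summit are small by construction.

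Position by position on this scale, all 3 neuronal heights lay below all 3 non-neuronal heights at 61.4% of positions. The main runs were from -1629 to -116 bp and from 343 to 1175 bp, on the shoulder and its outer slope and on the downstream slope. Neuronal heights lay above at 0.875% of positions, from 1967 bp outward, within the flank that sets the scale. These shares describe 6 libraries along 1 axis and are not a count of independent tests.

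Whole profiles were also set against each other by the root mean square difference in relative height. The 3 non-neuronal profiles differed from each other by 0.272 to 1.13 percentage points, and the aged vehicle and SAHA profiles were nearly the same curve. The 3 neuronal profiles differed by 1.06 to 3.28 points. The 9 differences between populations ranged from 2.02 to 5.43 points, with a median of 4.66. The ranges overlap, but without the aged vehicle neuronal library the remaining neuronal difference was 1.06 and those between populations were 4.08 to 5.43 points. The aged vehicle neuronal profile was nearest to the young non-neuronal profile, at 2.02 points, and 3.07 and 3.28 points from the other neuronal profiles. Each of the remaining 5 libraries was nearest to one of its own population. Neuronal profiles thus spread more over these conditions than non-neuronal ones, a difference that was not tested, and both large neuronal values involve that library.

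**Figure D5:**
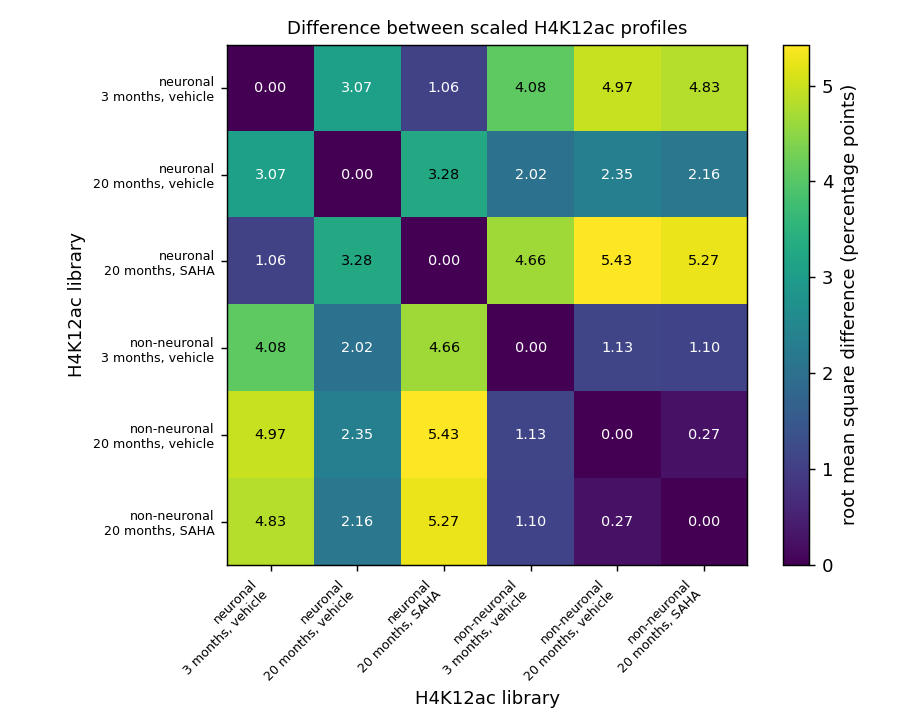
Root mean square difference in relative height, in percentage points over all positions, for each pair of H4K12ac libraries. The non-neuronal block holds values of 0.272 to 1.13, and the aged vehicle neuronal library has 2.02 to 2.35 to the non-neuronal libraries against 3.07 and 3.28 to the other neuronal ones.

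A straight line of the neuronal on the non-neuronal profile showed where the 2 curves were not scaled copies. At 3 months the residuals ran from -6.67% of the neuronal signal at -583 bp to 5.14% at the upstream edge, and with SAHA from -7.98% at -449 bp to 6.65% at that edge. In aged vehicle mice they ran from -2.66% to 2.59%, so those curves were closer to copies of each other. The mean residual between 200 and 500 bp upstream was -4.43%, -1.79% and -6.04%. From 1 to 200 bp downstream it was 3.34%, 1.26% and 4.72%, so the signs were opposite on the shoulder and on the rise to the summit in each pair. The residuals of a fitted line balance around 0, so opposite signs come partly from the fit. Lines between neuronal libraries left residuals from -5.62% to 3.90% (aged vehicle on young) and from -5.32% to 4.98% (SAHA on aged vehicle). In these windows the means were 2.65% and -2.96% in the former and -3.91% and 3.40% in the latter. For SAHA on young they ran from -2.56% to 1.18%, and between non-neuronal libraries from -2.84% at the lowest to 1.51% at the highest.

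The inputs bear on how far these differences depend on the background. Within 500 bp of the TSS, input stood above its own flank by a factor of 1.03, 1.11 and 1.03 in neuronal nuclei and of 1.09, 1.02 and 1.12 in non-neuronal nuclei. The log2 ratio of neuronal to non-neuronal input in this window was -0.11, 0.14 and -0.16, so the aged vehicle pair was ordered the other way from the rest. After division of each H4K12ac profile by its own input, the width was 966, 1159 and 952 bp in neuronal and 1217, 1159 and 1287 bp in non-neuronal nuclei. The difference grew to -251 and -335 bp in young and SAHA mice, and in aged vehicle mice it fell to -0.027 bp. With input subtracted, it was -187, -70.4 and -257 bp, close to the values of H4K12ac alone.

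The measures of both sides depended on input in the same pair. After division, the upstream half-height distances differed by -196, 0.57 and -246 bp, and the relative heights between 500 and 1000 bp upstream by -10.7, 1.14 and -13.4 points. In both measures the aged vehicle pair changed sign and the populations overlapped. Downstream, the half-height distances differed by -54.4, -0.598 and -88.7 bp, and the heights between 500 and 1000 bp by -6.24, -0.0669 and -9.49 points. The upstream share of the signal differed by -3.63, -0.0881 and -4.29 points. These did not overlap between populations, but the aged vehicle difference was nearly lost. With input subtracted, the downstream distances differed by -41.6, -23.5 and -61.2 bp. Between 200 and 500 bp upstream the paired differences were -12.1, -0.275 and -16.9 points after division by own input, and -8.86, -3.82 and -12.2 points with input subtracted. On the scaled profiles, neuronal values lay below all non-neuronal ones at 27.3% of positions after division and at 66.8% after subtraction, and above them at 2.07% and 1.75%. The flank kept its gap under division, with a fold over own input of 1.27, 1.25 and 1.25 in neuronal and 1.43, 1.41 and 1.41 in non-neuronal nuclei. The narrower neuronal shape thus held in young and SAHA mice with either treatment of input, whereas in aged vehicle mice it depended on whether input was divided out.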

How the data were processed

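H4K12ac ChIP-seq and input libraries of neuronal and non-neuronal nuclei were used, 12 in all. CASAVA 1.8.2, Bowtie2 and the build mm10 are named in the submitters' processing notes. The deposited values are a mean signal per position, and per the file headers the authors normalized them. The sources used here do not give the scaling factor, the TSS set or how duplicates were handled. Fragments averaged about 300 bp, with 0.5 µg of antibody per 500 ng of chromatin, per the labels' protocols.

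The members and measures were chosen with earlier results of these data known. The flank was 400 positions per side. Half-height points were found outward from the maximum by linear interpolation. Slopes were read after a running mean that took in 50 positions on either side. The steepest climb beyond 200 bp upstream and the change from -300 to -100 bp were chosen after the profiles were seen. Counting errors rest on the smallest step of signal (whole steps at 100% of positions, tolerance 0.1 of a step), a read span of 300 bp and an over-dispersion of 1.53 to 1.70; they were carried to distances through the local slope, and are lower limits. Within 500 bp they were 0.0731% to 0.148% of the signal. Pairs were compared by an exact permutation test that flips the signs of the pair differences (two-sided), and libraries by an unpaired exact test as an alternative. Alternatives were division by own or 1 common input, subtraction of input, windows of 200 and 1000 bp, flanks of 5% and 20% or of each side alone, crossings at 25% and 75% of the height, smoothing, and each pair left out. In place of genes, the rule named the maximum, the separate upstream maximum and the dip between it and the TSS. It also named the half-height points, the steepest slopes, regions of 500 bp and the extreme bins of 100 bp. The calculations were tested on simulated profiles. Python 3.11.15, NumPy 2.4.6 and Matplotlib 3.10.9 were used.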

Additional observations from a re-analysis of the deposited data

Results flagged for a closer look

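The signal within 500 bp of the TSS over own flank differed in direction between conditions. The log2 ratio of neuronal to non-neuronal H4K12ac was 0.0127 in young, -0.103 in aged vehicle and 0.0303 in aged SAHA mice. Each exceeded its counting error, and the difference between conditions was not tested, with 1 pair in each.

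The inputs also went opposite ways between conditions. Within 500 bp the log2 ratio of neuronal to non-neuronal input was -0.108 in young, 0.145 in aged vehicle and -0.159 in aged SAHA mice. In the flank it was -0.0268, 0.0208 and -0.0393 in the same order, and within 500 bp over own flank -0.0816, 0.124 and -0.12. These differences between conditions were not tested either, and their part in the H4K12ac differences was not tested.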

How the results depend on the processing

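Of 114 alternative values of the 12 measures, 105 kept their direction and moved by no more than the SD of the 3 pairs, 5 moved further and 4 reversed. The common input (the mean of the 6 inputs) was chosen after the data were seen. The SD of 3 pairs is wide, and no test here can reach 0.05, so this says little of stability. The log2 ratio of neuronal to non-neuronal signal within 500 bp was -0.184, -0.262 and -0.183 in the 3 pairs, on average -0.21. The populations overlapped in this measure after division by own input (-0.169) and with a window of 200 bp (-0.187). With own input subtracted, the log2 ratio was -0.31 within 500 bp and -0.72 in the flank. With the crossing at 75% of the height, the width difference was -26.2 bp and the upstream one -1.97 bp. At 25% the downstream difference was -74.1 bp. The log2 ratio within 500 bp over own flank, -0.020, reversed to 0.0054 after division by own input, to 0.41 with input subtracted and to 0.0031 with a window of 200 bp. Leaving out 1 pair at a time gave -0.045 to 0.021 for it, the latter without the aged vehicle pair. The width difference was then -208 to -128 bp. The causes were not tested. The unpaired exact test of 3 against 3 libraries changes no value and is not counted above; it gave p = 0.1, the smallest it allows, in the 9 measures in which the populations did not overlap. The samples carry no replicate numbers, and the pairs are the conditions.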
